A study of Mus musculus with 16 samples.

Results

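The integrated stress response and the unfolded protein response were followed through 47 genes, taken by symbol from 55468 named lines of the expression table of day 5 and 55471 of day 7. The genes form 3 arms: 18 genes of the amino-acid arm that is driven by the transcription factor *Atf4*, 15 genes of the endoplasmic reticulum (ER) arm, and 14 regulators and feedback genes. All 47 passed the filter on low values, a mean of at least 0.1 TPM, on both days. TPM is a transcript abundance that is corrected for transcript length and for the total of the library. The cells were neural stem cells (NSC) from pooled cortices of C57BL/6 mouse embryos at E15 to E16. Every culture was transduced with a lentivirus, which expressed either a scrambled shRNA (shRNACON) or 1 shRNA against the long noncoding RNA *RUS* (shRNARUS), so that untransduced cells and a second shRNA are not among the groups. The cells proliferated in medium with fibroblast growth factor and were moved to differentiation medium without it 5 days after seeding. PolyA RNA was collected on day 5 and on day 7 after seeding, so that a comparison of the days contains this change of medium as well, and the sources used here do not say whether the cells of day 5 were taken before or after it. There are thus 4 groups, day 5 shRNACON, day 5 shRNARUS, day 7 shRNACON and day 7 shRNARUS, each with 4 libraries that the labels number 1 to 4. The design counts 4 experiments per condition but does not tie them to separate preparations of cells, so p-values measure the spread between these libraries, which may in part be technical.

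As background, the integrated stress response starts when a kinase phosphorylates the initiation factor eIF2. General translation then falls, while the mRNA of *Atf4* is translated more, and *Atf4* protein switches on genes for amino acid synthesis, amino acid uptake and tRNA charging. The unfolded protein response starts when misfolded proteins accumulate in the ER. Its sensors are PERK, which is 1 of the eIF2 kinases, IRE1, which splices the mRNA of *Xbp1*, and ATF6, and the outcome is more ER chaperones and more ER-associated degradation. Both responses are active in neural progenitors during cortical development. Translation of *Atf4* and splicing of *Xbp1* do not show in TPM summed per gene, so the values of these genes are levels of total mRNA.

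Promoters of these genes can hold known stress elements, and the sequences are shown here because they were looked up without use of the libraries. The shares per arm below are counts, with no test between the arms. RefSeq promoters (GRCm38.p6, from 250 bases before to 50 bases after each start) were matched by symbol for 39 of the 47 genes. The ER stress element (ERSE, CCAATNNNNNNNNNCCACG, searched on both strands) was found in 6 of 13 ER genes (46.2%), in 0 of 13 genes of the amino-acid arm, in 0 of 13 regulators and in 0.137% of the 27025 genes of the table. The capitals below mark the CCAAT and CCACG parts of the element, each sequence reads in the direction of the element, and the strand is given with the position.
*Hspa5*: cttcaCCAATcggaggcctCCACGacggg
*Pdia6*: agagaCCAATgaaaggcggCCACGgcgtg
*Dnajc3*: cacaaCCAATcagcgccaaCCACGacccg
*Creld2*: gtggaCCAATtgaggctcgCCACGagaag
*Hsp90b1*: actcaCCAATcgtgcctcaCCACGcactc
*Calr*: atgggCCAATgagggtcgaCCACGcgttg
These stretches lie at chr2:34772020-34772048 (plus strand) for *Hspa5*, chr12:17266486-17266514 (plus) for *Pdia6*, chr14:118937822-118937850 (plus) for *Dnajc3*, chr15:88819515-88819543 (minus) for *Creld2*, chr10:86705528-86705556 (plus) for *Hsp90b1* and chr8:84847070-84847098 (plus) for *Calr*, all upstream of the RefSeq start. That of *Hspa5* lies inside the GENCODE span of the gene, which begins farther upstream. *Hsp90b1* holds a second match farther upstream. The related element ERSE-II (ATTGG and CCACG with 1 base between them) was found in *Herpud1* alone of the 39 genes searched, and in 0.0444% of all genes.

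The C/EBP-ATF response element (CARE, TGATGNAA, both strands), to which *Atf4* binds with C/EBP partners, was found in 5 of 13 genes of the amino-acid arm (38.5%: *Asns*, *Aars*, *Gars*, *Iars* and *Yars*), in 4 of 13 regulators (30.8%: *Atf3*, *Chac1*, *Nupr1* and *Trib3*), in 1 of 13 ER genes (7.69%: *Herpud1*) and in 4.51% of all genes. Of these, 5 that lie upstream of the RefSeq start are shown, with the fixed letters of the element in capitals. Those of *Asns*, *Atf3* and *Nupr1* lie inside the GENCODE span of the gene.
*Asns*: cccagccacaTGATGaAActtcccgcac
*Gars*: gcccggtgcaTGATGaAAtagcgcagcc
*Chac1*: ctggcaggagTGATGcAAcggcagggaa
*Atf3*: gcggacttggTGATGcAAgtgcgagaag
*Nupr1*: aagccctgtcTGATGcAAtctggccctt
They lie at chr6:7693215-7693242 (minus strand) for *Asns*, chr6:55037961-55037988 (minus) for *Gars*, chr2:119351039-119351066 (minus) for *Chac1*, chr1:191183426-191183453 (plus) for *Atf3* and chr7:126625563-126625590 (plus) for *Nupr1*. A match of letters does not show that a factor binds there, and its absence says only that these letters are not in this window.

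No read counts can be had from TPM, so the depth of the libraries is unknown. Between 25615 and 29126 genes per library were above 0. *RUS* itself, annotated as *Gm20754*, was near the lower limit of detection. It measured 0.24, 0.11, 0.18 and 0.16 TPM in shRNACON against 0.05, 0, 0.12 and 0.32 in shRNARUS on day 5 (log2 fold change -0.40 ± 0.44, adjusted p = 0.519), and 0.70, 0.72, 0.26 and 0.54 against 0.54, 0.38, 0 and 0.04 on day 7 (-1.28 ± 0.61, adjusted p = 0.114). The highest value of day 5 belongs to the library labelled shRNARUS replicate 4, which also stood apart from the other shRNARUS libraries in the regulators below, while its sum of cycling-cell genes lay with the other shRNARUS libraries of day 5, below all controls. Marker genes moved with the knockdown: the 9 genes of cycling cells were called lower on both days (9 of 9), with a summed level of 705 to 729 scaled TPM in shRNACON against 400 to 438 in shRNARUS on day 5 and 843 to 853 against 346 to 390 on day 7. All 8 microglia genes were called lower on day 7 (sum 368 to 382 against 159 to 197), and 3 were called lower and 1 higher on day 5 (141 to 154 against 124 to 145). Of 6 genes of the oligodendrocyte lineage, 4 on day 5 and 5 on day 7 were called lower (sum 89.7 to 111 against 55.7 to 68.4, and 191 to 223 against 103 to 154). None of these markers is at 0 in any whole group. The 7 genes of NSC and radial glia were present throughout, with a sum of 11410 to 13440 against 16310 to 19490 on day 5 and 7294 to 7634 against 7646 to 8423 on day 7, and gave 3 called higher and 2 lower on day 5 and 2 and 3 on day 7. *Vim* and *Fabp7* make up most of these sums, while the log2 fold changes of the 7 genes had a median of -0.01 on day 5 and -0.03 on day 7. The 5 astrocyte genes gave 2 and 1 on both days (sum 3229 to 3415 against 4515 to 4946, and 2145 to 2215 against 2858 to 3034, with a median log2 fold change of 0.03 and 0.01), the 7 neuron genes 2 and 2 on day 5 and 3 and 2 on day 7 (sum 480 to 548 against 509 to 558, and 812 to 893 against 804 to 933), and the 6 tested of 8 genes of fibroblasts, pericytes and endothelium 1 and 1 on day 5 and 2 and 1 on day 7 (sum 30.5 to 33.7 against 26.2 to 36.3, and 21.5 to 23.3 against 34.9 to 39.5 without overlap), with the endothelial gene *Cldn5* at 0 in shRNACON on day 7. The part of the markers in the results below was not tested, and in a bulk sample fewer cells of a type and less RNA per cell cannot be told apart.

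Levels are given as scaled TPM, which are TPM divided by a library factor, in the order of the replicate numbers. Differences are log2 fold changes, shRNARUS over shRNACON, on the scale of log2(scaled TPM + 0.1) with standard errors, from limma with Benjamini-Hochberg adjustment over all genes tested, and a gene was called at an adjusted p under 0.05. On day 5, 11 of the 47 genes were called higher and 10 lower, where 14.8% of all genes tested were called higher and 17.9% lower. On day 7, 12 were called higher and 23 lower, against 23.4% and 25.8% of all genes. All genes here include many at low levels: of the 24606 tested on day 7, 16333 reached a mean of 1 TPM. Nearly all of the 47 did, and a share over genes of like level was not taken. The share of members called lower on day 7 was 48.9%, and the 23 genes came from the amino-acid arm (11), the ER arm (9) and the regulators (3). The members did not move as 1 block: 7 genes were called higher on both days (*Dnajb9*, *Xbp1*, *Atf3*, *Ddit3*, *Sesn2*, *Ppp1r15a* and *Eif4ebp1*), 8 were called lower on both (*Asns*, *Gars*, *Wars*, *Pdia4*, *Pdia6*, *Edem1*, *Chac1* and *Ddit4*), and 2 were called higher on day 5 and lower on day 7 (*Slc3a2* and *Creld2*). Another 8 were called on neither day (*Aars*, *Nars*, *Calr*, *Herpud1*, *Atf5*, *Cebpb*, *Cebpg* and *Stc2*). The scaling matters on day 5. With TPM as deposited, the median of the log2 fold changes over all genes moved on day 5 from -0.06 to -0.21, the split of all called genes from 3349 higher and 4034 lower to 1768 and 6037, and that of the members to 6 higher and 20 lower. On day 7 the median was -0.03 with either scaling. In the GENCODE vM21 annotation of GRCm38 all 47 genes are protein-coding, among them *Asns* at chr6:7675169-7693254 (minus strand), *Hspa5* at chr2:34771970-34777547 (plus), *Trib3* at chr2:152337422-152344032 (minus), *Ppp1r15a* at chr7:45522916-45526268 (minus) and *Eif4ebp1* at chr8:27260329-27276674 (plus).

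**Figure D1:**
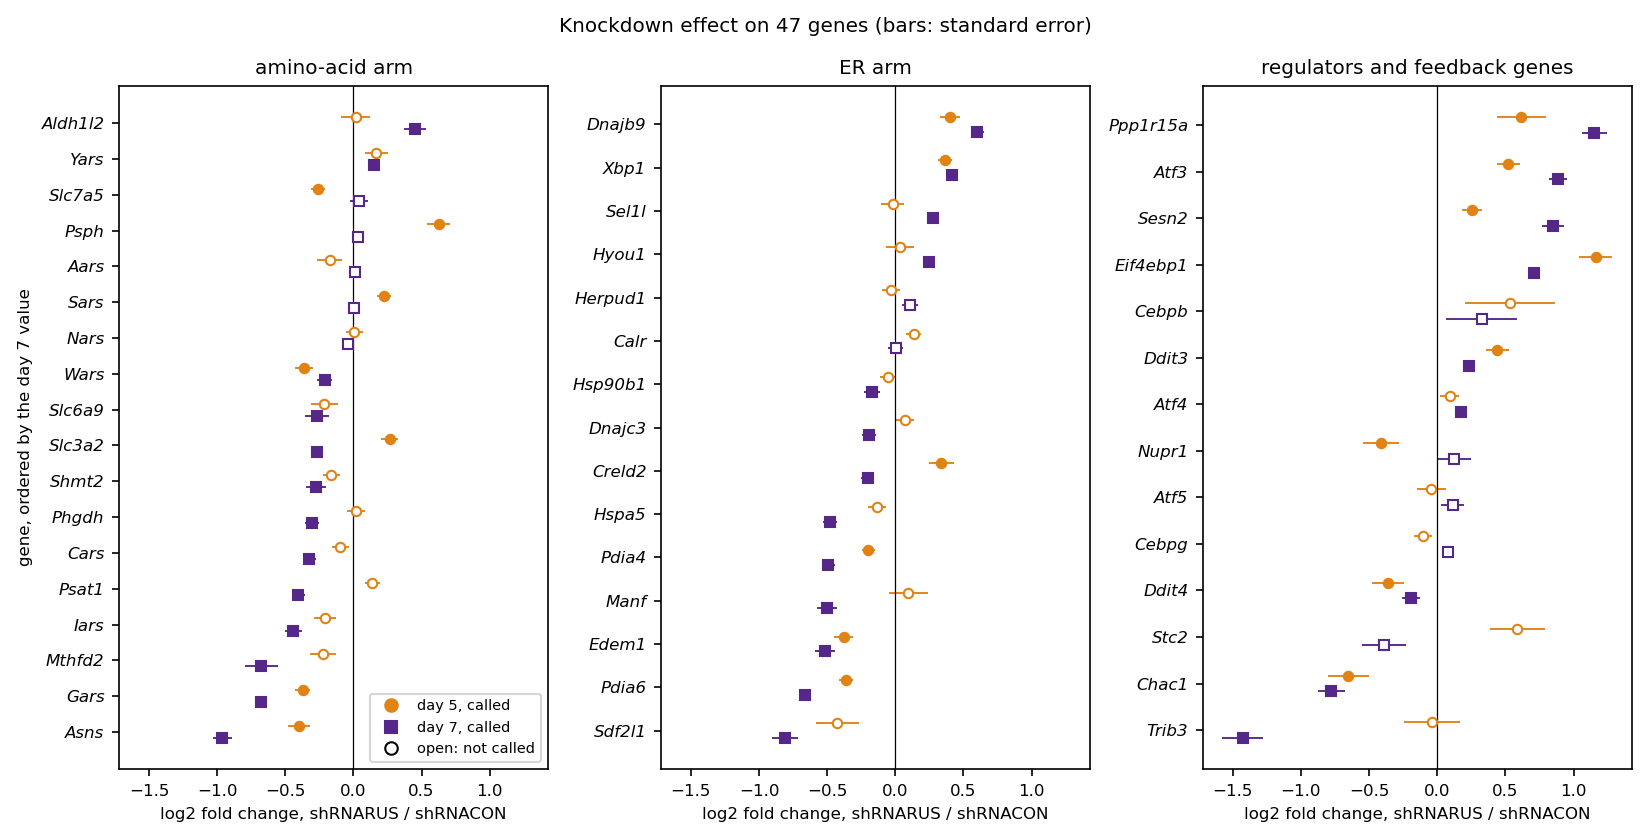
Log2 fold change (shRNARUS over shRNACON) of each of the 47 genes on day 5 (orange circles) and day 7 (purple squares), grouped by arm, with bars for the standard error. Filled symbols were called by limma, open ones were not, and on day 7 the called genes of the amino-acid and ER arms lie mostly left of 0 (11 and 9 lower, 2 and 4 higher) while *Ppp1r15a* (1.15), *Atf3* (0.88) and *Sesn2* (0.85) lie to the right.

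The enzymes of the amino-acid arm were mostly lower on day 7, when 5 of 7 were called lower and 1 higher, after 1 in each direction on day 5. *Asns*, which makes asparagine from aspartate and is a classical target of *Atf4*, measured 34.8, 29.3, 33.8 and 32.99 in shRNACON and 16.5, 15.4, 18.2 and 16.9 in shRNARUS on day 7. All shRNARUS libraries lay below all shRNACON libraries, at 51.4% of the control level by the log2 fold change (-0.96 ± 0.07, adjusted p = 3.77e-06). On day 5 the levels were 21.1, 20.9, 20.6 and 21.9 against 16.9, 17.6, 15.9 and 13.7, again without overlap, and the decrease was smaller (-0.40 ± 0.08, adjusted p = 0.00463). In shRNACON the level of *Asns* rose between the days (0.40 ± 0.08, adjusted p = 0.000397), and in shRNARUS the change of -0.18 ± 0.08 was not called.

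The serine pathway, in which *Phgdh*, *Psat1* and *Psph* catalyse successive steps from 3-phosphoglycerate to serine, did not change as a unit. On day 5 *Psph* rose, with 88.4, 100.3, 98.4 and 104 in shRNACON and 159, 156, 162 and 129 in shRNARUS, all shRNARUS libraries above the controls (0.63 ± 0.08, adjusted p = 0.00052). On day 7 its levels overlapped, at 58.5 ± 1.51 and 59.8 ± 2.04 (mean ± SD, n = 4), with a log2 fold change of 0.03 ± 0.04. The first and the second enzyme fell on day 7. For *Psat1* the libraries of day 7 gave 303, 289.6, 282 and 294 against 238, 220.1, 221 and 205, without overlap (-0.40 ± 0.05, adjusted p = 6.88e-05), after 255, 271, 276 and 258 against 309, 294, 277 and 289 on day 5, where the shift was not called (0.14 ± 0.05, adjusted p = 0.0701). *Phgdh* measured 276, 254, 247 and 265 and 223, 197, 222 and 202 on day 7, also without overlap (-0.30 ± 0.05, adjusted p = 0.000916), and 185, 209, 206 and 209.8 and 206, 218, 209 and 185 on day 5, where the groups overlapped and the log2 fold change was 0.02 ± 0.07. With TPM as deposited this value of day 5 turned to -0.14 and was called.

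The folate enzymes of the mitochondria split on day 7. *Mthfd2*, a dehydrogenase and cyclohydrolase of mitochondrial one-carbon metabolism, measured 18.8, 23.2, 20.3 and 18.1 in shRNACON and 11.8, 10.7, 12.3 and 15.7 in shRNARUS (-0.68 ± 0.12, adjusted p = 0.00112), all shRNARUS libraries below the controls, and *Shmt2*, which feeds this route from serine, fell by less (-0.27 ± 0.07, adjusted p = 0.0119). In contrast, *Aldh1l2*, which oxidizes formyl-tetrahydrofolate in the mitochondria, was the 1 enzyme that rose, from 10.46, 10.8, 11.7 and 12.96 to 14.7, 16.2, 17.1 and 14.8 with all shRNARUS libraries above (0.45 ± 0.08, adjusted p = 0.00125). On day 5 none of the 3 was called (*Mthfd2* -0.22 ± 0.10, *Shmt2* -0.16 ± 0.06, *Aldh1l2* 0.02 ± 0.11). With TPM as deposited *Mthfd2* (-0.38) and *Shmt2* (-0.32) were called lower on day 5, as were *Shmt2* with quantile normalization (-0.23) and *Mthfd2* without shRNARUS replicate 1 (-0.31).

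Of the transporters, *Slc3a2* and *Slc7a5* encode the heavy and the light chain of 1 exchanger for large neutral amino acids, and their mRNAs moved apart on day 5. *Slc3a2* measured 396, 438, 412 and 436 in shRNACON and 471, 529.5, 536 and 487 in shRNARUS, with all shRNARUS libraries above (0.27 ± 0.06, adjusted p = 0.00949), a call that was lost with TPM as deposited (0.11) and with quantile normalization (0.10). *Slc7a5* measured 29.02, 28.6, 27.8 and 28.1 and 22.4, 24.8, 23.97 and 23.7, with all shRNARUS libraries below (-0.26 ± 0.05, adjusted p = 0.00463). On day 7 the order was different. *Slc3a2* was then lower in every shRNARUS library, at 360.5, 357, 344 and 343 against 281, 296, 295 and 296 (-0.27 ± 0.03, adjusted p = 8.79e-05), and *Slc7a5* overlapped at 48.05, 46.4, 47.7 and 44.7 against 42.4, 47.1, 51.8 and 51.4 (0.04 ± 0.06, adjusted p = 0.64). The glycine transporter gene *Slc6a9* was called lower on day 7 only at the margin (-0.27 ± 0.09, adjusted p = 0.0348), with overlapping groups, and the call was lost without shRNACON replicate 1 or 4, or shRNARUS replicate 1, 2 or 4 (log2 fold change -0.27 to -0.20), and with quantile normalization (-0.22). On day 5 it was not called (-0.21 ± 0.10), but it was called lower with TPM as deposited (-0.37) and without shRNARUS replicate 4 (-0.28).

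The 8 tRNA synthetase genes, which charge tRNAs with their amino acids, gave 2 lower and 1 higher on day 5 and 4 lower and 1 higher on day 7. *Gars*, the glycyl-tRNA synthetase, fell on both days. Its libraries of day 7 measured 80.5, 75.7, 75.8 and 81.2 in shRNACON and 52.2, 46.98, 48.1 and 48.2 in shRNARUS (-0.68 ± 0.04, adjusted p = 2.13e-06), those of day 5 62.5, 65.04, 66.3 and 66.2 and 53.98, 50.2, 48.7 and 47.9 (-0.37 ± 0.05, adjusted p = 0.000745), without overlap on either day. The tryptophanyl-tRNA synthetase gene *Wars* was also lower on both days, with 57.4, 60.8, 59.3 and 58.3 against 40.6, 47.3, 45.96 and 49.6 on day 5 (-0.36 ± 0.07, adjusted p = 0.00262) and 54.9, 53.05, 55.5 and 50.5 against 42.5, 49.1, 45.3 and 48.2 on day 7 (-0.21 ± 0.05, adjusted p = 0.00956), and its groups did not overlap. *Iars* and *Cars*, for isoleucine and cysteine, fell on day 7 (-0.44 ± 0.06 and -0.32 ± 0.05) and were not called on day 5 (-0.21 ± 0.08 and -0.10 ± 0.07). *Yars*, for tyrosine, rose on day 7 (0.15 ± 0.04, adjusted p = 0.00964), a call that quantile normalization lost (0.11), and *Sars*, for serine, rose on day 5 (0.23 ± 0.05, adjusted p = 0.0107), a call that was lost with TPM as deposited (0.07) and quantile normalization (0.09). *Aars* and *Nars* were not called on either day, with log2 fold changes of -0.17 and 0.01 on day 5 and 0.01 and -0.04 on day 7. On day 5 *Aars* (-0.33), *Iars* (-0.37) and *Cars* (-0.25) were called lower with TPM as deposited, and without shRNARUS replicate 1 *Iars* (-0.27) was called lower and *Yars* (0.25) higher. Several of these genes overlap others in the annotation (*Aars* with *Exosc6* on its own strand, *Wars* with *Wdr25* on the other), as *Psph* does with *Cct6a* on the other strand, and since no source says whether reads were counted by strand, their levels are uncertain to that extent.

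**Figure D2:**
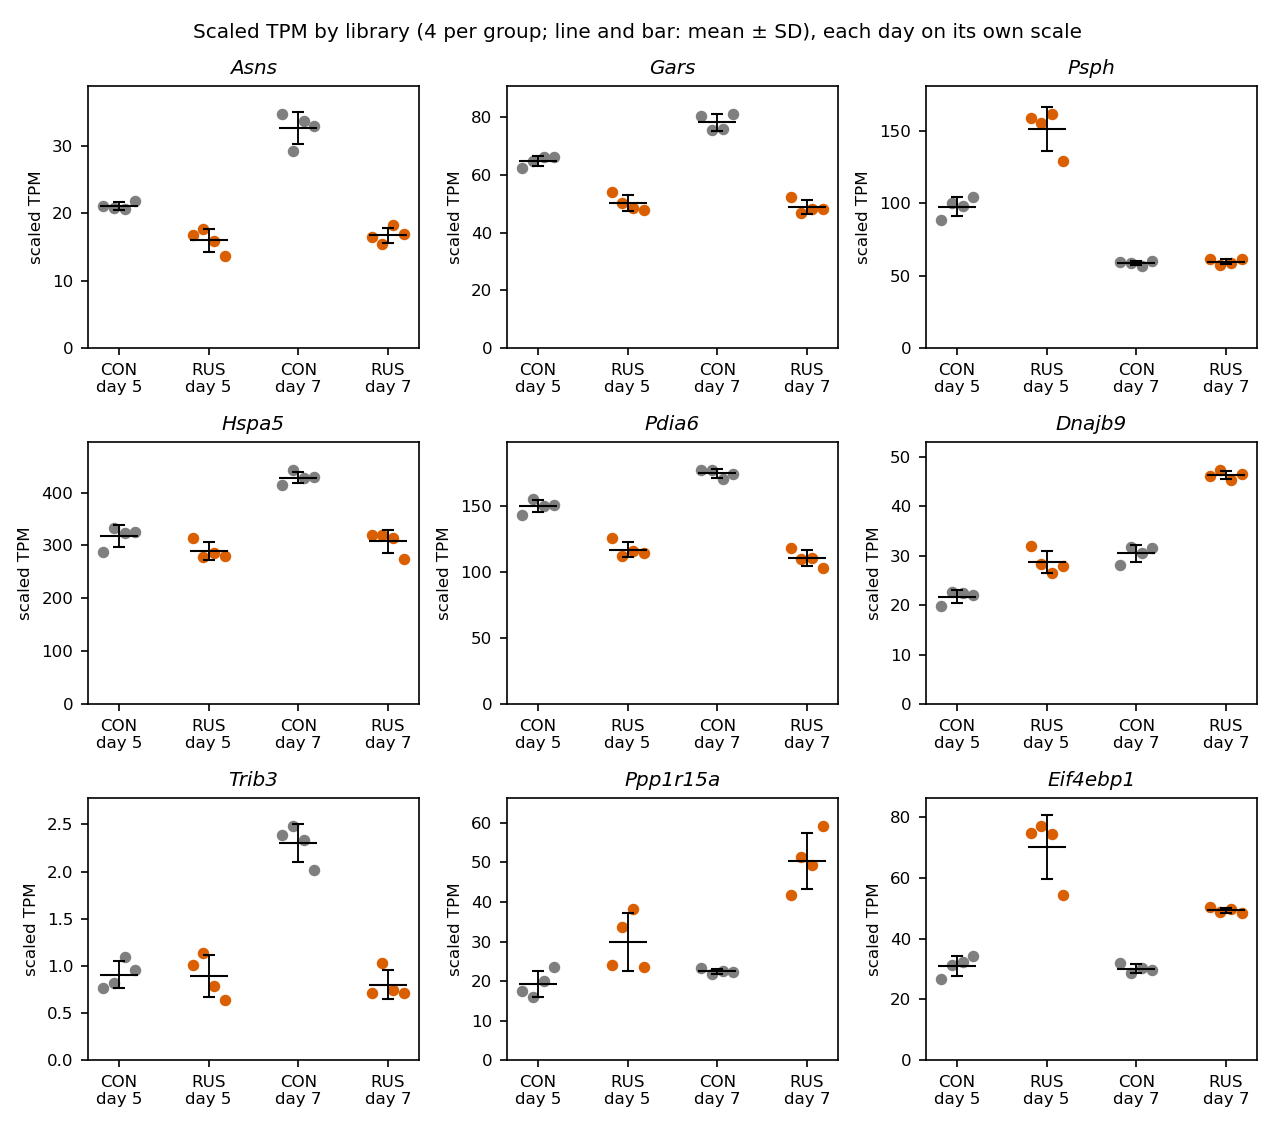
Scaled TPM (linear axis from 0) of selected genes in each library, with shRNACON in grey and shRNARUS in orange on day 5 and day 7, and the mean ± SD (n = 4) as line and bar. *Asns* on day 7 lies at 29.3 to 34.8 in shRNACON and 15.4 to 18.2 in shRNARUS, and the *Eif4ebp1* library that lies below the other shRNARUS libraries on day 5 (54.5) is replicate 4.

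In the ER arm, 3 genes were called higher and 3 lower on day 5, and 4 higher and 9 lower on day 7, when 8 of the 11 chaperones and cofactors were called lower. These are 20% in each direction on day 5, beside 14.8% higher and 17.9% lower over all genes tested. On day 7 they are 26.7% higher and 60% lower, beside 23.4% and 25.8%. *Hspa5*, the gene of the chaperone BiP, which also holds the stress sensors inactive, measured 415, 442, 428 and 429 in shRNACON and 321, 320.4, 314 and 275 in shRNARUS on day 7. The shRNARUS libraries lay below the controls, at 71.7% of their level by the log2 fold change (-0.48 ± 0.05, adjusted p = 4.52e-05), and replicate 4 was the lowest. On day 5 the groups overlapped, at 288, 334, 324 and 325 against 314, 278, 286 and 279, and the log2 fold change of -0.13 ± 0.06 was not called, although it was with TPM as deposited (-0.29) and with quantile normalization (-0.32). The disulfide isomerase genes *Pdia6* and *Pdia4* were lower on both days. *Pdia6* measured 177, 177, 170.1 and 174 against 118, 109, 111 and 103 on day 7 (-0.66 ± 0.04, adjusted p = 1.94e-06) and 143, 155, 149.8 and 150.5 against 125, 112, 115 and 114 on day 5 (-0.36 ± 0.05, adjusted p = 0.000788), without overlap on either day. *Pdia4* fell by 0.49 ± 0.05 on day 7 (adjusted p = 2.72e-05) and by 0.20 ± 0.05 on day 5 (adjusted p = 0.0121), where its call was lost with the replicate number as a block. The decrease of *Hsp90b1*, the ER member of the Hsp90 family, was at the margin on day 7 (-0.17 ± 0.06, adjusted p = 0.033), with overlapping groups, and its call was lost without shRNACON replicate 2, 3 or 4, or shRNARUS replicate 3 or 4 (log2 fold change -0.17 to -0.12), and with quantile normalization (-0.14). On day 5 it was not called (-0.05 ± 0.06), but it was called lower with TPM as deposited (-0.21) and with quantile normalization (-0.24). *Calr*, a lectin chaperone and with a mean near 470 to 535 scaled TPM the most abundant of the 47 genes, was not called on either day (0.13 ± 0.05 on day 5 and 0.00 ± 0.05 on day 7).

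Among the cofactors, *Sdf2l1*, which acts with ER Hsp40 proteins, had the largest decrease of the arm on day 7, from 20.9, 20.3, 20.5 and 16.4 in shRNACON to 9.65, 11.4, 11.99 and 11.2 in shRNARUS (-0.81 ± 0.09, adjusted p = 7.74e-05). Its groups did not overlap, and replicate 4 was the lowest of the controls. On day 5 its log2 fold change of -0.42 ± 0.16 was not called, but it was with TPM as deposited (-0.58) and without shRNARUS replicate 2 (-0.51). *Manf*, a secreted protein of the ER that is induced by ER stress, measured 233, 244, 239 and 205 against 147, 179, 169 and 155 on day 7, below the controls throughout (-0.50 ± 0.07, adjusted p = 0.000328), and 152, 197, 197 and 224 against 227, 225, 211 and 159 on day 5, where the groups overlapped (0.10 ± 0.14, adjusted p = 0.647). *Creld2*, another stress-inducible ER protein, was higher on day 5 and lower on day 7. Its values were 35.04, 36.6, 40.5 and 43.3 against 47.97, 52.6, 53.4 and 42.6 on day 5, with overlap (0.34 ± 0.09, adjusted p = 0.0204), and 46.1, 45.1, 42.7 and 40.1 against 37.9, 38.2, 38.4 and 36.6 on day 7, without overlap (-0.20 ± 0.05, adjusted p = 0.00683). The call of day 5 was lost without shRNACON replicate 1 or 2, or shRNARUS replicate 2 or 3 (log2 fold change 0.29 to 0.31), and with TPM as deposited (0.18). *Dnajc3*, an inhibitor of eIF2 kinases and a cochaperone of BiP, measured 85.05, 89.5, 89.6 and 96.5 against 84.99, 80.4, 75.9 and 74.5 on day 7 (-0.19 ± 0.05, adjusted p = 0.0137) and 46.5, 45.1, 46.6 and 44.6 against 51.2, 44.2, 44.2 and 52.6 on day 5 (0.07 ± 0.07, adjusted p = 0.491), with overlap on day 5 only. *Manf* overlaps *Rbm15b* on its own strand in the annotation.

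A smaller set of ER genes rose. *Dnajb9*, the cochaperone ERdj4 and a known target of *Xbp1*, measured 19.8, 22.6, 22.4 and 22.1 against 31.9, 28.4, 26.6 and 27.9 on day 5 (0.40 ± 0.07, adjusted p = 0.00275) and 28.1, 31.8, 30.6 and 31.6 against 46.2, 47.3, 45.2 and 46.5 on day 7 (0.60 ± 0.05, adjusted p = 5.89e-06), above the controls in every library. *Xbp1*, the transcription factor downstream of IRE1, had 26.3, 26.6, 26.4 and 27.3 against 34.97, 34.5, 35.9 and 31.8 on day 5 (0.36 ± 0.05, adjusted p = 0.000915) and 32, 30.8, 30.1 and 30.7 against 40.6, 41.5, 41.2 and 41.5 on day 7 (0.41 ± 0.03, adjusted p = 9.57e-06), also without overlap. These are the 2 ER genes called higher on both days. *Hyou1*, an ER chaperone of the Hsp110 family, rose on day 7 (0.25 ± 0.04, adjusted p = 0.000811) and was not called on day 5 (0.03 ± 0.10). The genes of ER-associated degradation went in different directions. *Sel1l*, the adaptor of the Hrd1 ubiquitin ligase, measured 58.8, 61.5, 59.1 and 60.6 against 70.95, 76.8, 72 and 71.6 on day 7, above the controls throughout (0.28 ± 0.04, adjusted p = 0.000171), and 46.3, 44.6, 43.95 and 42.2 against 40.7, 41.5, 40.8 and 52.5 on day 5, with replicate 4 highest among the shRNARUS libraries (-0.02 ± 0.09, adjusted p = 0.881). *Edem1*, which extracts misfolded glycoproteins from the folding cycle, was below the controls in every library, at 18.6, 16.8, 18.5 and 15.1 against 11.96, 11.4, 12.1 and 12.6 on day 7 (-0.52 ± 0.07, adjusted p = 0.000295) and 10.8, 10.6, 9.53 and 9.69 against 7.48, 8.07, 8.08 and 7.47 on day 5 (-0.38 ± 0.07, adjusted p = 0.00331). *Herpud1* was not called on day 5 (-0.03 ± 0.07) or day 7 (0.11 ± 0.06).

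The regulators and feedback genes were the arm with more genes called higher than lower, 5 against 3 on day 5 and 6 against 3 on day 7, with a median log2 fold change of 0.17 and 0.15. On day 5 these are 35.7% higher and 21.4% lower, beside 14.8% and 17.9% of all genes tested. On day 7 they are 42.9% and 21.4%, beside 23.4% and 25.8%. The excess of genes called higher on day 5 depends on the scaling, since TPM as deposited gave 3 higher and 3 lower. Without the library labelled shRNARUS replicate 4 of day 5, the split of day 5 was 7 higher and 1 lower. Leaving out single libraries of day 5 gave between 3 and 7 called higher: it was 3 without shRNACON replicate 1 or 2 or shRNARUS replicate 2 or 3. The number called lower was 1 without shRNACON replicate 2, 3 or 4 or shRNARUS replicate 4. The mRNA of *Atf4* itself rose on day 7. It measured 66.9, 72.9, 71.7 and 74.6 in shRNACON and 80.3, 77.8, 80.5 and 66.6 in shRNARUS on day 5, with overlap (0.09 ± 0.07, adjusted p = 0.368), and 104, 102, 99.8 and 104 and 115, 119, 109 and 120.0 on day 7, where all shRNARUS libraries were above (0.18 ± 0.04, adjusted p = 0.00333). Without shRNARUS replicate 4, the value of day 5 was called higher as well (0.16).

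*Ddit3*, which encodes the pro-apoptotic factor CHOP, was called higher on both days, with 34.5, 36.5, 36.6 and 37.8 against 51.3, 52.4, 53.8 and 41.05 on day 5 (0.44 ± 0.09, adjusted p = 0.00404) and 39.4, 41.6, 41.3 and 39.1 against 46.9, 46.2, 46.1 and 50.5 on day 7 (0.23 ± 0.04, adjusted p = 0.00142). The shRNARUS libraries were above the controls, with replicate 4 the highest on day 7. The table holds a second line with this symbol for an overlapping locus on chromosome 10, which was at 0 in all libraries of day 5 and between 0 and 10.55 TPM on day 7, and with both lines summed the call of day 7 was lost (0.16 ± 0.09, adjusted p = 0.175). The gene also overlaps *Mars* on the other strand. *Atf3*, a factor that *Atf4* and CHOP induce, rose from 5.18, 5.58, 5.76 and 5.77 to 8.42, 8.45, 8.33 and 7.05 on day 5 (0.52 ± 0.08, adjusted p = 0.00148) and from 7.78, 7.82, 6.79 and 6.86 to 13.2, 12.96, 14.1 and 13.98 on day 7 (0.88 ± 0.07, adjusted p = 5.68e-06). None of its libraries overlapped between the groups, and on day 5 replicate 4 was the lowest in shRNARUS. *Nupr1*, a small stress-inducible chromatin protein, was called lower on day 5 with overlapping groups, 8.60, 10.2, 9.02 and 11 against 9.15, 6.51, 7.51 and 6.12 (-0.41 ± 0.13, adjusted p = 0.0414). On day 7 it was not called, at 5.32, 7.13, 5.81 and 6.12 against 6.85, 5.38, 7.07 and 7.36 (0.12 ± 0.12, adjusted p = 0.43). The call of *Nupr1* on day 5 was lost without shRNACON replicate 2, 3 or 4, or shRNARUS replicate 2, 3 or 4 (log2 fold change -0.45 to -0.33), and with quantile normalization (-0.29). *Atf5*, *Cebpb* and *Cebpg*, further partners of *Atf4* and CHOP, were not called, with log2 fold changes of -0.04 ± 0.11, 0.53 ± 0.33 and -0.10 ± 0.07 on day 5 and 0.11 ± 0.08, 0.33 ± 0.26 and 0.08 ± 0.05 on day 7. The standard errors of *Cebpb* are the widest of these 3, and *Atf5* overlaps *Nup62* and *Il4i1* on the other strand.

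The feedback genes held the largest changes of the 47 in both directions. *Ppp1r15a* encodes GADD34, which brings a phosphatase to eIF2 and so ends the response. It measured 23.2, 21.8, 22.6 and 22.3 in shRNACON and 41.8, 51.4, 49.2 and 59.2 in shRNARUS on day 7, without overlap and at 222% of the control level by the log2 fold change (1.15 ± 0.09, adjusted p = 6.49e-06). On day 5 the groups overlapped, 17.4, 15.9, 19.96 and 23.6 against 24.1, 33.7, 38.1 and 23.5 (0.62 ± 0.18, adjusted p = 0.0252), and the call was lost without shRNACON replicate 1 or 2, or shRNARUS replicate 2 or 3 (log2 fold change 0.49 to 0.57), and with TPM as deposited (0.46). *Trib3*, a pseudokinase that holds *Atf4* and CHOP in check, went the other way. Its low level on day 7 was 2.39, 2.48, 2.33 and 2.02 in shRNACON and 0.713, 1.03, 0.748 and 0.713 in shRNARUS, without overlap and with replicate 2 highest in shRNARUS (-1.43 ± 0.15, adjusted p = 3.79e-05), whereas on day 5 the groups overlapped at 0.764, 0.820, 1.09 and 0.951 against 1.01, 1.14, 0.788 and 0.634 (-0.04 ± 0.20, adjusted p = 0.908). *Chac1*, which degrades glutathione, was lower on both days. Its libraries gave 2.89, 3.28, 3.34 and 3.81 against 2.36, 2.32, 2.16 and 1.56 on day 5 (-0.65 ± 0.15, adjusted p = 0.00931) and 5.59, 5.76, 5.69 and 5.04 against 3.11, 2.73, 3.34 and 3.58 on day 7 (-0.78 ± 0.10, adjusted p = 0.000127), without overlap.

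Several feedback genes act on mTORC1 or on translation. *Eif4ebp1*, the inhibitor of the cap-binding protein eIF4E, had the largest increase on day 5, from 26.5, 31.3, 32.3 and 34.4 to 74.8, 77.1, 74.5 and 54.5 (1.16 ± 0.12, adjusted p = 0.000143), and remained above the controls on day 7, at 32.03, 28.5, 30.4 and 29.5 against 50.3, 48.7, 49.7 and 48.5 (0.71 ± 0.04, adjusted p = 1.33e-06). On day 5 replicate 4 was the lowest of its shRNARUS libraries but above all controls. *Sesn2*, an inhibitor of mTORC1 that is induced by *Atf4* and p53, measured 33.5, 31.2, 33.1 and 33.9 against 34.8, 42.5, 42.7 and 37.6 on day 5 (0.25 ± 0.07, adjusted p = 0.0275) and 38.02, 40.4, 42.4 and 35.1 against 61.6, 69.1, 72.7 and 78.4 on day 7 (0.85 ± 0.08, adjusted p = 2.11e-05), without overlap on either day. Its call on day 5 was lost without shRNACON replicate 1, 2 or 3, or shRNARUS replicate 2 or 3 (log2 fold change 0.22 to 0.26), and with TPM as deposited (0.10). *Ddit4*, also an inhibitor of mTORC1, was called lower on both days at the margin (-0.36 ± 0.12, adjusted p = 0.0397 on day 5 and -0.19 ± 0.07, adjusted p = 0.0397 on day 7). The call of *Ddit4* on day 5 was lost without shRNACON replicate 1, 2, 3 or 4, or shRNARUS replicate 1 or 4 (log2 fold change -0.39 to -0.26), and that on day 7 without shRNACON replicate 2 or 3, or shRNARUS replicate 1, 2 or 3 (log2 fold change -0.21 to -0.14), and with TPM as deposited (-0.19). *Stc2*, a secreted glycoprotein, was at a low level and called on neither day, with 0.997, 0.810, 0.779 and 0.739 against 0.989, 1.42, 1.82 and 1.08 on day 5 (0.59 ± 0.20, adjusted p = 0.0521) and 0.939, 1.11, 1.16 and 1.33 against 0.904, 0.971, 0.767 and 0.723 on day 7 (-0.39 ± 0.16, adjusted p = 0.0716), and its groups overlapped. It was called higher on day 5 without shRNARUS replicate 1 (0.71) or 4 (0.67) and with quantile normalization (0.75), and lower on day 7 without shRNACON replicate 1 (-0.47) and with eBayes without a trend (-0.39). Without the filter on low values, or with eBayes without a trend, the calls of *Nupr1* and *Ddit4* on day 5 and of *Slc6a9*, *Hsp90b1* and *Ddit4* on day 7 were lost, and without a trend those of *Sesn2* and *Ppp1r15a* on day 5 as well.

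The amino-acid arm was set against the ER arm by the counts of their genes and by a level per library, the mean over the genes of an arm of their log2 levels after centring each gene on the mean of the libraries of that day. On day 7 the level of the amino-acid arm was 0.12 ± 0.02 in shRNACON and -0.12 ± 0.03 in shRNARUS (mean ± SD, n = 4), and that of the ER arm was 0.08 ± 0.03 and -0.08 ± 0.04. In both arms each shRNARUS library lay below each shRNACON library. The regulators were at -0.07 ± 0.07 and 0.07 ± 0.06, and their groups overlapped. The difference between the arms, amino-acid minus ER, was 0.04 ± 0.04 in shRNACON, with a range from -0.01 to 0.07, and -0.04 ± 0.06 in shRNARUS, from -0.11 to 0.04, so that the groups overlapped. On day 5 the amino-acid arm was at 0.03 ± 0.01 and -0.03 ± 0.02, the ER arm at 0.01 ± 0.04 and -0.01 ± 0.03, and the regulators at -0.09 ± 0.12 and 0.09 ± 0.19, of which the library labelled shRNARUS replicate 4 was at -0.18 (others 0.11 to 0.22) and shRNACON replicate 4 at 0.06 (others -0.22 to -0.08). These levels of day 5 depend on the scaling. Without a scaling of the deposited TPM, the amino-acid arm was at 0.11 ± 0.04 and -0.11 ± 0.06 and the ER arm at 0.08 ± 0.03 and -0.08 ± 0.04, both without overlap, and the regulators were at -0.02 ± 0.10 and 0.02 ± 0.14. With quantile normalization the amino-acid arm was at 0.06 ± 0.02 and -0.06 ± 0.02 and the ER arm at 0.04 ± 0.02 and -0.04 ± 0.01, both without overlap. With the scaling used here the groups of the ER arm overlapped, while those of the amino-acid arm did not (lowest shRNACON 0.015, highest shRNARUS -0.003). The differences between the arms overlapped on day 5 with each of these scalings. By counts, 11 of 18 genes of the amino-acid arm (61.1%) and 9 of 15 of the ER arm (60%) were called lower on day 7, beside 25.8% of all genes tested. On day 5 these shares were 22.2% and 20%, beside 17.9%. The median log2 fold changes of day 7 were -0.27 and -0.19, beside -0.03 over all genes tested. On day 5 the medians were -0.13 and -0.02, beside -0.06 over all genes.

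**Figure D3:**
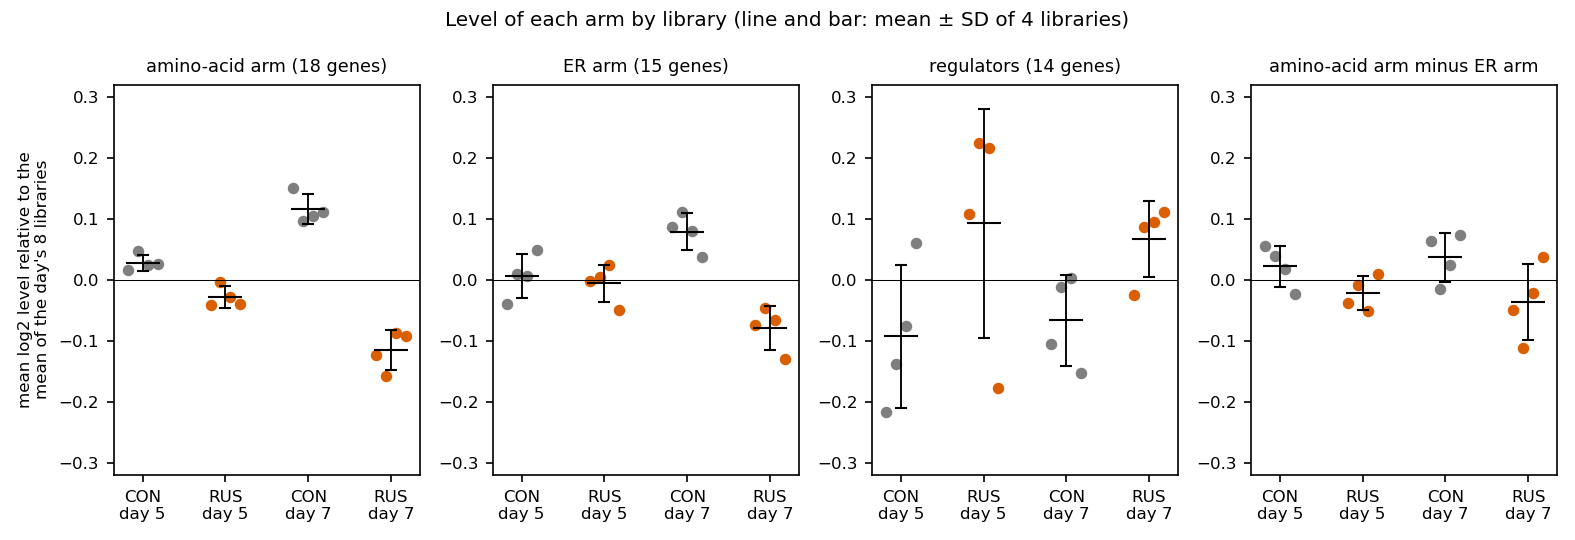
Level of each arm in each library (mean centred log2 level over the genes of the arm, so that 0 is the mean of the 8 libraries of the day), with shRNACON in grey and shRNARUS in orange and the mean ± SD (n = 4) as line and bar. On day 7 the amino-acid arm (0.12 against -0.12) and the ER arm (0.08 against -0.08) separate by shRNA, the groups of the regulators overlap, and the point of the regulators at -0.18 in shRNARUS on day 5 is replicate 4.

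Whether the effect of the knockdown differed between the days was tested in 1 fit over the 16 libraries, as the log2 fold change of day 7 minus that of day 5. The difference was called higher for 6 genes and lower for 18, while 15.2% of all genes tested were called higher and 14.6% lower. In the amino-acid arm 9 of 18 were lower and 2 higher, in the ER arm 6 of 15 and 1, and in the regulators 3 of 14 each. This split depends on the scaling, with 15 higher and 9 lower for TPM as deposited, where the median over all genes moves from 0.04 to 0.19 and the split of all called genes from 3626 higher and 3464 lower to 5700 and 2053. The largest difference was that of *Trib3* (-1.39 ± 0.25, adjusted p = 0.000661), followed by *Stc2* (-0.99 ± 0.25, adjusted p = 0.00833). *Manf* (-0.61 ± 0.17), *Psat1* (-0.56 ± 0.07), *Creld2* (-0.55 ± 0.10) and *Slc3a2* (-0.55 ± 0.06), whose fold changes had opposite signs on the 2 days, were called lower. *Asns* (-0.57 ± 0.11), which fell on both days, and *Psph* (-0.61 ± 0.09), which was called on day 5 only, were called lower as well. In contrast, *Sesn2* (0.58 ± 0.11) and *Atf3* (0.35 ± 0.10), which rose on both days, and *Slc7a5* (0.29 ± 0.08), which fell on day 5, were called higher. These 11 genes kept their call under each setting and each left-out library that was run. Leaving out single libraries gave 3 to 6 genes called higher, with 3 without day 5 shRNARUS replicate 2 or day 7 shRNACON replicate 1 or 3.

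The other 13 calls of the difference depended on the scaling or on single libraries. The calls of *Phgdh* (-0.33 ± 0.08), *Sars* (-0.24 ± 0.06), *Hspa5* (-0.36 ± 0.08), *Pdia4* (-0.30 ± 0.07) and *Dnajc3* (-0.27 ± 0.09) were lost with TPM as deposited and with quantile normalization. Of the scalings, TPM as deposited alone ended those of *Cars* (-0.24 ± 0.08), *Gars* (-0.32 ± 0.07), *Pdia6* (-0.31 ± 0.06) and *Mthfd2* (-0.46 ± 0.16), and quantile normalization alone that of *Eif4ebp1* (-0.47 ± 0.13) and *Nupr1* (0.53 ± 0.19). In leaving out single libraries, *Mthfd2* lost its call without day 5 shRNACON replicate 1, 3 or 4, or day 5 shRNARUS replicate 1 or 3, or day 7 shRNACON replicate 2 or 3, or day 7 shRNARUS replicate 1, 2 or 3 (difference -0.47 to -0.38). *Aldh1l2* (0.42 ± 0.14) lost it without day 5 shRNACON replicate 1 or 3, or day 5 shRNARUS replicate 2 or 3, or day 7 shRNACON replicate 1, 2 or 3, or day 7 shRNARUS replicate 2 or 3 (difference 0.34 to 0.43). For *Cars* this was so without day 5 shRNACON replicate 1, 3 or 4, or day 5 shRNARUS replicate 3, or day 7 shRNACON replicate 1, 3 or 4, or day 7 shRNARUS replicate 2 or 3 (difference -0.24 to -0.21). For *Sel1l* (0.29 ± 0.10) it was so without day 5 shRNACON replicate 1 or 2, or day 5 shRNARUS replicate 1, 2 or 3, or day 7 shRNACON replicate 1 or 3, or day 7 shRNARUS replicate 2 (difference 0.25 to 0.29). *Dnajc3* lost its call without day 5 shRNACON replicate 2 or 4, or day 5 shRNARUS replicate 1 or 4, or day 7 shRNACON replicate 2 or 4, or day 7 shRNARUS replicate 3 or 4 (difference -0.28 to -0.23). The call of *Nupr1* was lost without day 5 shRNACON replicate 2, 3 or 4, or day 5 shRNARUS replicate 2, 3 or 4, or day 7 shRNACON replicate 1, 3 or 4, or day 7 shRNARUS replicate 1, 3 or 4 (difference 0.45 to 0.56). Without a filter, the calls of *Mthfd2*, *Aldh1l2*, *Dnajc3*, *Sel1l* and *Nupr1* were lost, and with eBayes without a trend those of *Mthfd2*, *Cars*, *Dnajc3*, *Sel1l* and *Nupr1*. Calls were also gained. TPM as deposited added *Aars*, *Wars*, *Hyou1*, *Dnajb9*, *Herpud1*, *Xbp1*, *Atf4*, *Cebpg* and *Ppp1r15a*, all higher (0.21 to 0.69), and quantile normalization added *Edem1* (-0.28), *Atf4* (0.18) and *Ppp1r15a* (0.59). Without day 5 shRNARUS replicate 4, *Sdf2l1* (-0.52), *Ddit3* (-0.31) and *Cebpg* (0.22) were called, without day 5 shRNARUS replicate 1 *Dnajb9* (0.24), and without day 5 shRNARUS replicate 3 or day 7 shRNARUS replicate 1 *Iars* (-0.30). The remaining 18 of the 24 called genes kept their calls when any 1 of the 16 libraries was left out.

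The time course was read within each shRNA. From day 5 to day 7 in shRNACON, 15 of the 47 genes were called higher and 12 lower, against 26.9% and 21.6% of all genes tested. In shRNARUS 15 were called higher and 23 lower, against 35% and 25.8%. As both days are compared in 1 fit, these contrasts share libraries with the knockdown effects and are given as values side by side. With TPM as deposited the counts were 24 higher and 7 lower in shRNACON and 25 and 10 in shRNARUS, and the split of all called genes went from 6394 higher and 5133 lower to 8573 and 3434 in shRNACON and from 8317 and 6135 to 11801 and 3545 in shRNARUS. The median over all genes moved from 0.07 to 0.20 and from 0.13 to 0.41 with that scaling. In the ER arm of shRNACON, 7 genes were called higher and 3 lower, among the 7 *Dnajc3* (0.75 ± 0.06), *Sdf2l1* (0.54 ± 0.14), *Edem1* (0.53 ± 0.07) and *Hspa5* (0.20 ± 0.06), while in shRNARUS 5 were called higher and 7 lower, with *Dnajc3* at 0.47, *Edem1* at 0.38 and *Hspa5* at -0.16. The amino-acid arm went from 4 higher and 7 lower in shRNACON to 2 and 11 in shRNARUS. *Psph* had the largest decrease in both, by 0.97 ± 0.07 in shRNACON and by 1.58 ± 0.07 in shRNARUS. *Slc3a2* fell as well, by 0.49 ± 0.05 and by 1.04 ± 0.05, and its partner *Slc7a5* rose by 0.49 ± 0.06 and 0.77 ± 0.06. Among the regulators *Trib3* rose in shRNACON (1.05 ± 0.17, adjusted p = 0.000112) and was not called in shRNARUS (-0.34 ± 0.17, adjusted p = 0.101). *Sesn2* (0.01 ± 0.08 and 0.59 ± 0.08), *Atf3* (0.16 ± 0.07 and 0.50 ± 0.07) and *Ppp1r15a* (0.01 ± 0.15 and 0.53 ± 0.15) were called higher in shRNARUS and not in shRNACON, and the difference between the shRNAs in this change was called for *Sesn2* and *Atf3* but not for *Ppp1r15a* with the scaling used here (0.52 ± 0.21, adjusted p = 0.0787). That of *Ppp1r15a* was called with TPM as deposited (0.69) and quantile normalization (0.59), and without day 5 shRNACON replicate 2 (0.61), day 5 shRNARUS replicate 3 (0.65) or day 7 shRNARUS replicate 1 (0.61). The mRNA of *Atf4* rose in both, by 0.29 ± 0.06 and 0.36 ± 0.06.

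**Figure D4:**
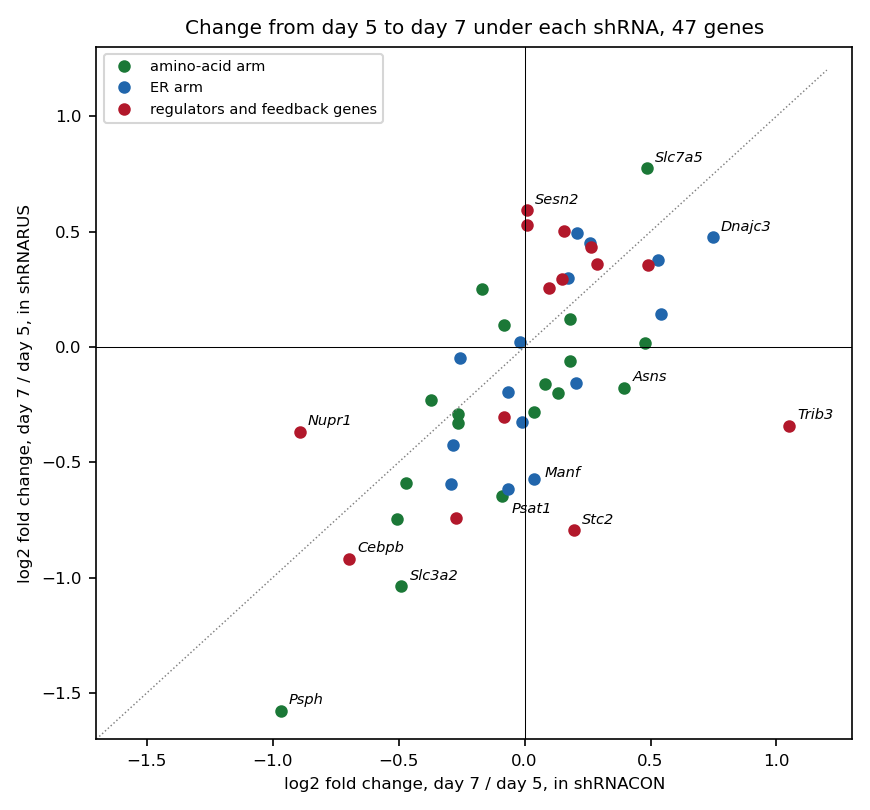
Log2 fold change from day 5 to day 7 in shRNACON (horizontal axis) and in shRNARUS (vertical axis) for the 47 genes, coloured by arm, with the dotted line where both are equal. *Trib3* (1.05 in shRNACON, -0.34 in shRNARUS) and *Stc2* lie farthest below the line, and *Sesn2* (0.01 and 0.59) lies above it.

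Genes of the same pathways that are not among the 47 were counted in lists. Of 18 sensors and genes of the eIF2 machinery, 5 were called higher and 1 lower on day 5, and 7 higher and 5 lower on day 7. The 7 were the kinase genes *Eif2ak1* (0.27 ± 0.03) and *Eif2ak3* (0.23 ± 0.05, the gene of PERK), *Ern1* (0.23 ± 0.08, the gene of IRE1), *Atf6* (0.37 ± 0.04), *Atf6b* (0.56 ± 0.06), *Mbtps1* (0.13 ± 0.04, a protease that activates ATF6) and *Impact* (0.24 ± 0.05, an inhibitor of GCN2). The 5 were *Eif2s1*, the subunit of eIF2 that the kinases phosphorylate (-0.55 ± 0.07), and subunits of its exchange factor, *Eif2b1* (-0.17 ± 0.06), *Eif2b2* (-0.27 ± 0.06), *Eif2b3* (-0.52 ± 0.05) and *Eif2b5* (-0.23 ± 0.05). These genes were named after their values were seen. Of 11 further cytosolic tRNA synthetases tested, 3 were called higher and 3 lower on day 5, and 0 higher and 9 lower on day 7, with a median of -0.26. The 17 mitochondrial synthetases gave 4 and 4 on day 5 and 2 higher and 7 lower on day 7.

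Among 17 other amino acid transporters, 2 were called higher and 5 lower on day 5, and 7 and 8 on day 7, and the arginine transporter gene *Slc7a3* rose most (1.18 ± 0.09, adjusted p = 5.39e-06 on day 7), while the neutral amino acid transporter gene *Slc7a10*, at a low level, had the largest decrease of this list on day 7 (-1.07 ± 0.30, adjusted p = 0.0157). *Slc7a10* was named after its value was seen. Of 21 other genes of amino acid and one-carbon metabolism tested, 5 were called higher and 6 lower on day 5, and 9 and 8 on day 7. They include the largest decrease in any of these pathway lists, that of *Cth*, which makes cysteine from cystathionine (-1.92 ± 0.06, adjusted p = 9.68e-08 on day 7), next to an increase of *Cbs*, the enzyme of the step before it (1.22 ± 0.05, adjusted p = 2.83e-07). The 14 other targets of *Atf4* and CHOP gave 5 higher and 2 lower on day 5 and 8 and 2 on day 7, with *Gadd45a* at the top (1.48 ± 0.14, adjusted p = 2.48e-05 on day 7), a growth arrest gene that p53 induces as well. Of 32 other ER chaperones, translocon and disulfide genes, 12 were called higher and 2 lower on day 5, and 10 and 13 on day 7. In ER-associated degradation, 7 of 18 were called higher and 4 lower on day 5, and 5 and 6 on day 7, with *Ube2g2*, a ubiquitin-conjugating enzyme, at -1.02 ± 0.07 on day 5 and -0.91 ± 0.04 on day 7. Mitochondrial chaperones and proteases gave 3 higher and 1 lower of 12 on day 5 and 1 and 7 on day 7. The 13 heat shock genes gave 3 higher and 3 lower on day 5 and 5 and 6 on day 7, when the cochaperone gene *Bag3* rose by 1.49 ± 0.10 and the cytosolic chaperone gene *Hsp90aa1* was at -0.93 ± 0.08, both called, the latter named after its value was seen. *Hspa1a* (1.19 ± 0.17) and *Hspa1b* (1.27 ± 0.16) are near-identical copies between which reads cannot be divided with certainty.

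**Figure D5:**
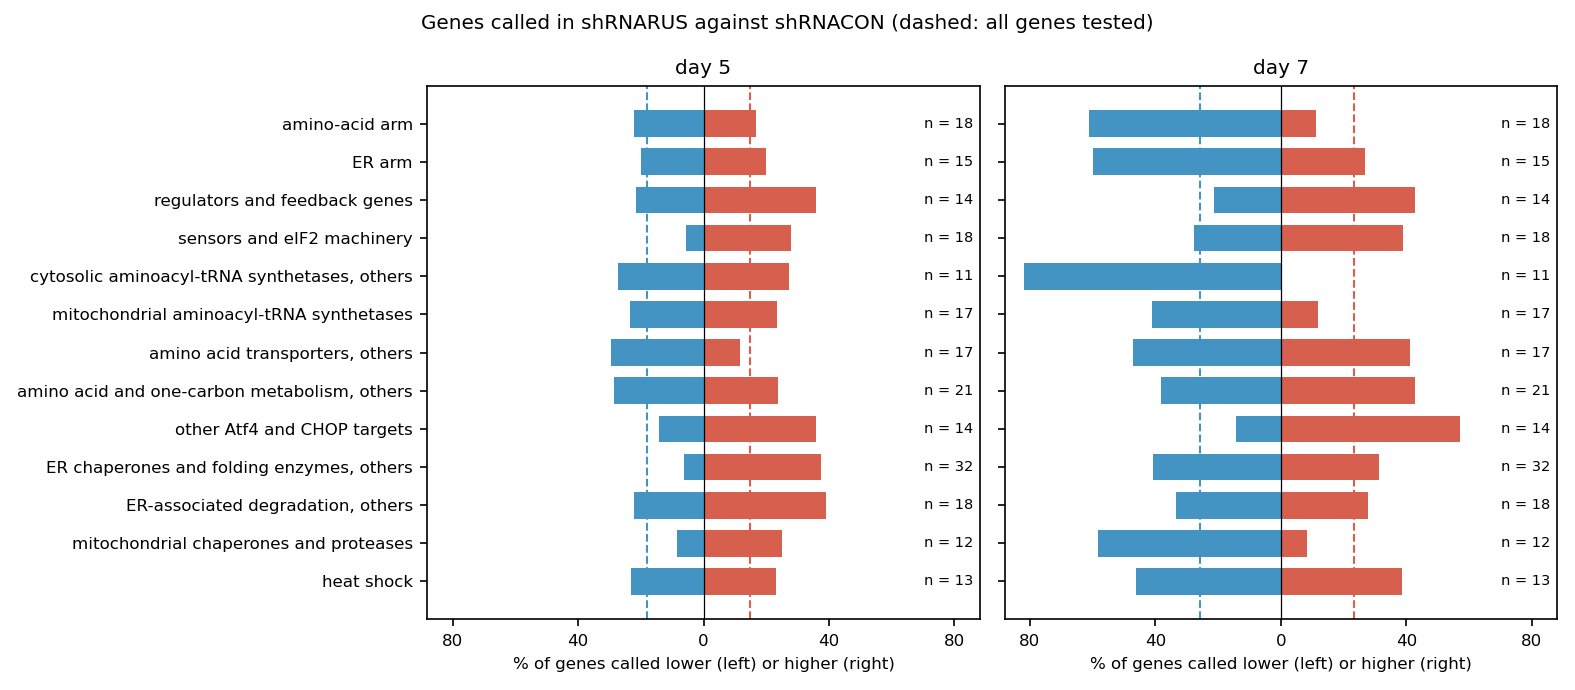
Share of the tested genes of each arm and pathway list that were called lower (blue, to the left) or higher (red, to the right) in shRNARUS, in percent, on day 5 and day 7. The dashed lines give the share of all genes tested (17.9% lower and 14.8% higher on day 5, 25.8% and 23.4% on day 7), and on day 7 the cytosolic synthetases outside the members reach farthest to the left among these (9 of 11).

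The calls were last read against the promoter elements. For comparison, 14.8% of all genes tested were called higher and 17.9% lower on day 5, and 23.4% and 25.8% on day 7. The 6 ER genes with an ERSE gave 1 higher (*Creld2*) and 1 lower (*Pdia6*) on day 5, and 0 higher and 5 lower on day 7 (*Hspa5*, *Hsp90b1*, *Pdia6*, *Dnajc3* and *Creld2*), with a median log2 fold change of -0.20. The 7 ER genes with a promoter in the table and no ERSE gave 2 and 2 on day 5 and 3 higher and 3 lower on day 7, with a median of 0.11. Outside the 47 genes, the 17 tested genes with an ERSE gave 5 higher and 5 lower on day 7, and the 16 of day 5 gave 1 and 5. In the amino-acid arm, the 5 genes with a CARE gave 1 higher (*Yars*) and 3 lower (*Asns*, *Gars* and *Iars*) on day 7, and the 8 without gave 0 and 6. On day 5 these counts were 0 higher and 2 lower with a CARE and 3 and 0 without. Of the regulators, the 4 with a CARE gave 1 higher (*Atf3*) and 2 lower (*Trib3* and *Chac1*) on day 7, and the 9 without gave 4 and 1, after 1 and 2 against 3 and 1 on day 5. The 398 other genes with a CARE that were tested gave 109 higher and 131 lower on day 7, and the 369 of day 5 gave 63 and 79. These counts are a description of small groups and were not tested.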

How the data were processed

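PolyA RNA was sequenced by the authors (Illumina NextSeq 500), and genes were quantified with RSEM after alignment with STAR to mm10 and the GRCm38.99 annotation. The authors deposited TPM per library in a table per day. The tables also hold the authors' own comparison made with DESeq2 (a base mean, which is a signal averaged over libraries, log2 fold change, standard error, a test score, p-value and adjusted p-value), and these deposited columns were not used here. Strandedness is not given in the sources used here.

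Each library's TPM were scaled by the median of their ratios to the geometric mean of the libraries in the fit, over genes that reached 1 TPM in all of them. The factors were 0.99 to 1.01 on day 7. On day 5 they differed between the shRNAs, at 1.02 to 1.11 in shRNACON and 0.92 to 0.94 in shRNARUS replicates 1 to 3, with shRNARUS replicate 4 at 1.01. After adding 0.1 and taking log2, genes whose mean reached 0.1 TPM were tested with limma 3.58.1 in R 4.3.3 (lmFit, eBayes with trend, two-sided, Benjamini-Hochberg, 0.05), per day over 8 libraries (22581 and 24606 genes) and, for differences between the days, over 16 (23789 genes), where 106 lines with differing or missing symbols were left out. The test was also run on simulated data in which few genes were changed, as many up as down. Such a run does not check the scaling or the calls where many genes change. Positions came from GENCODE vM21 (GRCm38) by symbol. Figures were made with Python 3.11.15 and matplotlib 3.10.9.

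The members, arms, pathway lists and marker lists (7 sets, of cycling cells, microglia, oligodendrocyte lineage, NSC and radial glia, neuron, astrocyte, and fibroblast, pericyte and endothelium) were chosen with earlier results of these data known. Values per library are given for *Atf4*, *Ddit3*, *Xbp1*, *Hspa5* and *Asns*, for the 4 largest called changes per arm and day at a mean of at least 1 TPM, and for genes called in the difference with opposite signs on the 2 days. From the lists, called genes with an absolute log2 fold change of at least 1 and a mean of at least 1 TPM are named, and other list and marker genes were named after their values were seen. The alternatives were a pseudocount of 1, a filter at 1 TPM or none, TPM as deposited, quantile normalization, eBayes without trend, the replicate number as a block and leaving out each library. The sum of the 2 *Ddit3* lines was added after the data were seen.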

Additional observations from a re-analysis of the deposited data

Results flagged for a closer look

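In groups of 4 libraries, 15 of 188 groups held a library whose gap to the nearest of the others took up nearly the whole range of the group. Chance alone gives about 1 in 20 such groups. In the library labelled day 5 shRNARUS replicate 4, the scaled TPM that stood apart were *Atf3* 7.05 (others 8.33 to 8.45), *Eif4ebp1* 54.5 (others 74.5 to 77.1), *Sars* 136 (others 149 to 151) and *Sel1l* 52.5 (others 40.7 to 41.5). In day 5 shRNACON replicate 4, the scaled TPM that stood apart were *Atf5* 57.9 (others 46.8 to 48.0) and *Sdf2l1* 13.9 (others 10.3 to 10.8). In day 5 shRNACON replicate 1, the scaled TPM that stood apart was *Phgdh* 185 (others 206 to 209.8). In day 7 shRNARUS replicate 1, the scaled TPM that stood apart were *Atf5* 62.1 (others 72.7 to 74.5) and *Slc3a2* 281 (others 295 to 296). For day 7 shRNARUS replicate 2 these were *Cebpg* 25.0 (others 23.0 to 23.3) and *Trib3* 1.03 (others 0.713 to 0.748). For day 7 shRNARUS replicate 4 these were *Ddit3* 50.5 (others 46.1 to 46.9), *Hspa5* 275 (others 314 to 321) and *Pdia4* 126 (others 145 to 146). For day 7 shRNACON replicate 4 this was *Sdf2l1* 16.4 (others 20.3 to 20.9). 

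The effect of the knockdown differed between the days in 24 genes, by limma's test of the log2 fold change of day 7 minus that of day 5. In the amino-acid arm, the difference was lower for *Asns* (-0.57), *Psat1* (-0.56), *Phgdh* (-0.33), *Psph* (-0.61), *Mthfd2* (-0.46), *Slc3a2* (-0.55), *Cars* (-0.24), *Gars* (-0.32) and *Sars* (-0.24). It was higher in that arm for *Aldh1l2* (0.42) and *Slc7a5* (0.29). Of the ER arm, the difference was lower for *Hspa5* (-0.36), *Pdia4* (-0.30), *Pdia6* (-0.31), *Dnajc3* (-0.27), *Creld2* (-0.55) and *Manf* (-0.61). It was higher in that arm for *Sel1l* (0.29). Among the regulators, the difference was lower for *Trib3* (-1.39), *Stc2* (-0.99) and *Eif4ebp1* (-0.47). It was higher in that arm for *Atf3* (0.35), *Nupr1* (0.53) and *Sesn2* (0.58). With TPM as deposited, 9 members were called lower in this difference and 15 higher.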

How the results depend on the processing

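TPM keeps no depth, so what depth limits could not be assessed, and *RUS* and the low levels of *Trib3* and *Stc2* are uncertain. The standard errors of *Cebpb* (0.33 on day 5 and 0.26 on day 7) were wider than those of *Trib3* (0.20 and 0.15) and *Stc2* (0.20 and 0.16). With a pseudocount of 1 or a filter at 1 TPM, the counts per arm stayed within 1.5 times of those reported. Without a filter, 1 regulator was called lower on day 5 and 3 members were called higher in the difference between the days. With TPM as deposited, the amino-acid arm gave 1 higher and 11 lower on day 5, the ER arm 6 lower and the regulators 3 higher and 3 lower, the difference 15 higher and 9 lower, and the change from day 5 to day 7 24 higher and 7 lower in shRNACON and 25 and 10 in shRNARUS. *Phgdh* on day 5 was then -0.14 in place of 0.02. That scaling moves the median of all genes by over 0.1 in these comparisons. Quantile normalization gave 1 higher in the amino-acid arm and 5 lower in the ER arm on day 5, and 1 higher in the amino-acid arm on day 7. Without a trend, the regulators of day 5 gave 3 higher and 1 lower. Leaving out 1 library at a time gave 3 to 7 regulators higher and 1 to 2 lower on day 5, and 3 to 6 members higher in the difference. For single genes, the settings ended 8 of 21 calls on day 5, 5 of 35 on day 7 and 13 of 24 in the difference, and single libraries 5, 3 and 6. The settings added 10, 1 and 11 calls, and single libraries 7, 1 and 6. No clear pairing by replicate number was seen: libraries with the same number correlated at -0.08, -0.10, -0.02 and -0.25 on day 5 and at 0.03, 0.10, 0.06 and 0.02 on day 7, and not every library correlated best with its own number. These values, centred within groups of 4 libraries, cannot exclude that a number marks a shared preparation. With the replicate number as a block, all genes called fell to 2231 higher and 2735 lower on day 5, the regulators of day 5 gave 3 higher and 1 lower, and the difference 3 members higher. The block ended the day 5 calls of *Sars*, *Pdia4*, *Creld2*, *Nupr1*, *Ddit4*, *Sesn2* and *Ppp1r15a* and the day 7 calls of *Slc6a9*, *Hsp90b1* and *Ddit4*. In the difference it ended those of *Mthfd2*, *Aldh1l2*, *Cars*, *Sel1l* and *Nupr1* and added *Iars* (-0.24). Other counts of the arms stayed within 1.5 times.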
